A study of Mus musculus with 28 samples.

Results

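The 9 genes described here code for proteins of the smooth muscle contractile apparatus: Acta2, Actg2, Tagln, Cnn1, Cald1, Tpm1, Tpm2, Myl9 and Myh11. They were chosen by name from the 37620 genes of a count table, all 9 were found, and all 9 passed the filter on low counts. Poly(A) RNA of mouse cells was sequenced in 28 libraries, with 2 libraries in each of 14 groups. The groups are cells labelled WT and cells labelled K36M, a lysine-to-methionine substitution in histone H3, at each of 7 stages. The stages are MEFs (mouse embryonic fibroblasts, d0), d2, d4, d6 and d8 of reprogramming, passaged iPSCs (induced pluripotent stem cells), and MEFs without OKSM, written noOKSM, where OKSM stands for the reprogramming factors Oct4, Klf4, Sox2 and Myc. The library names of the WT cells carry H3_3, and the labels do not say how the K36M histone is expressed, so what both genotypes share beyond the stage is not given in the sources used here. The medium changed along the way: DMEM with serum for MEFs, one named AGi during reprogramming and one named S/L for iPSCs. A change from d0 to d2 or from d8 to iPSC cannot be told apart from that of the medium. The noOKSM libraries carry another library series name than the rest, and a difference between noOKSM and d0 cannot be told apart from that.

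Smooth muscle shortens when filaments of actin slide over filaments of myosin. Acta2 and Actg2 are the smooth muscle alpha and gamma actins, and Tagln (transgelin, SM22), Cnn1 (calponin), Cald1 (caldesmon) and the tropomyosins Tpm1 and Tpm2 bind along the actin filament. Myh11 is the smooth muscle myosin heavy chain, and Myl9 is a regulatory light chain whose phosphorylation starts contraction. Fibroblasts in culture make many of these proteins as parts of stress fibres, and Acta2 is the usual mark of an activated fibroblast or myofibroblast, whereas Myh11 is held to be closer to differentiated smooth muscle. In muscle and in fibroblasts these genes are known as targets of SRF (serum response factor), which binds a short sequence called the CArG box together with myocardin (Myocd) or the myocardin-related factors Mkl1 and Mkl2.

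The sequence before the start of transcription is shown for Acta2 and Myl9, a pair of members whose levels move together across reprogramming, and for Cnn1, whose late course differs from theirs. RefSeq's promoter windows (GRCm38.p6), of 250 bases before to 50 bases after the start, held an entry for 6 members, namely Acta2, Myl9, Cnn1, Tpm1, Tpm2 and Cald1, and each was placed on mm9 by an exact match. The bases lie at chr19:34329864-34330113 on the minus strand for Acta2, at chr2:156600950-156601155 on the plus strand for Myl9 and at chr9:21903447-21903696 on the plus strand for Cnn1, and end before the first start of RefSeq or GENCODE vM1. Capitals mark the CArG boxes (CC, then 6 bases that are each A or T, then GG) and the CArG-like elements in which 1 of those 6 bases is G or C.
Acta2: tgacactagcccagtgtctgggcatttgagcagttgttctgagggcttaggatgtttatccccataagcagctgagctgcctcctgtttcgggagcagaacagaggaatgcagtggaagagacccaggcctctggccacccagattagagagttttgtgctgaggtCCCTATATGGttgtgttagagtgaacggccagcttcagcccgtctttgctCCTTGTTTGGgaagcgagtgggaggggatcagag
Myl9: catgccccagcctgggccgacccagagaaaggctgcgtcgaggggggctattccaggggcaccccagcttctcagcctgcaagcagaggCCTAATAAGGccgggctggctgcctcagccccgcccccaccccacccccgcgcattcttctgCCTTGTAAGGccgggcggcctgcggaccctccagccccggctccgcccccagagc
Cnn1: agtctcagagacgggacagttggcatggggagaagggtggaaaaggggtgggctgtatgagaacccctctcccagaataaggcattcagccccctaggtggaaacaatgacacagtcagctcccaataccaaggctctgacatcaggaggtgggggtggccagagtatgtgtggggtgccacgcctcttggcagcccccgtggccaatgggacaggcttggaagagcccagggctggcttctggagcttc

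Myl9 held a CArG box, CCTAATAAGG, that begins at base -161 from RefSeq's start, and a CArG-like element, CCTTGTAAGG, at base -99. Acta2 held 2 CArG-like elements, CCCTATATGG at base -84 and CCTTGTTTGG at base -34. No match was found in the windows of Cnn1, Tpm1, Tpm2 and Cald1, which says only that these letters are not in them. In Tpm1 and Tpm2 only 57 and 39 bases of the window lie before the GENCODE vM1 start, and the rest lies within the gene model. Members without a match did not share 1 course. Over the 16 libraries of d2 to d8, Pearson's r with Acta2 was 0.959 for Cald1, 0.937 for Tpm1, 0.774 for Cnn1 and 0.629 for Tpm2. Whether these elements bear on the course of a gene was not tested. Over all 32851 RefSeq promoter windows, searched on both strands, 1.63% held a CArG box, 8.50% a CArG-like element and 9.98% either of them. The motif CATTCC, bound by TEAD factors, was searched on both strands too, and no match of it in a member overlapped one of the CArG elements. It stood in 14.7% of all windows and, on the minus strand, in those of Acta2 (base -146), Cald1 (base -153) and Tpm1 (base -56, within the GENCODE vM1 gene model).

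Total gene counts per library ran from 17507521 to 35622279. Whether both libraries of a group stem from different cultures is not in the labels. The p-values therefore rest on the variation between libraries alone, possibly a technical one. The ratio of replicate 1 to replicate 2 over the 9 members ran from 0.690 to 1.42 in 11 groups. In K36M d6 replicate 1 was above replicate 2 for all 9 members, by ratios from 1.11 for Cald1 to 2.06 for Cnn1. In both iPSC groups replicate 1 was below replicate 2 for all 9, with ratios from 0.689 to 0.988 in WT and 0.578 to 0.941 in K36M, and in K36M d8, one of the 11, it was above for all 9, with ratios up to 1.18. The members' fold changes called with K36M d6 are also given without its replicate 1 and without its replicate 2. Those called in K36M from d8 to iPSC are given likewise without each K36M iPSC library. Reads of actins and myosins were separable at the length tested: of all 50-base windows of a member's transcripts, 0.404% of Acta2's were shared with Actg1, 0.392% of Myh11's with other myosin genes and none of Actg2's with any other protein-coding gene. Tagln shares 65 exon bases with Pcsk7 on the opposite strand, and 1.04% of its windows, so a small part of its count is uncertain. In bulk RNA, fewer cells that express a gene and less of its RNA per cell cannot be told apart.

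In WT MEFs at d0 the contractile genes differed widely in level. Per kilobase of exon, Acta2 stood highest with a mean of 6071 CPM per kb (CPM, the read count scaled to library depth with TMM factors), then Tagln with 3953, Myl9 with 1119.7, Tpm1 with 947, Actg2 with 727, Tpm2 with 616, Cald1 with 501, Cnn1 with 406 and Myh11 with 36.8. Myh11, the member closest to differentiated smooth muscle, had the lowest level of the 9 on this scale. On mm9, with GENCODE vM1 gene models, Acta2 lies on chromosome 19 from 34315580 to 34329826, on the minus strand, and Actg2 on chromosome 6 from 83462899 to 83486259, on the minus strand. Tagln lies on chromosome 9 from 45737711 to 45744141, on the minus strand, Cnn1 on chromosome 9 from 21903725 to 21914074, on the plus strand, and Cald1 on chromosome 6 from 34548500 to 34725473, on the plus strand. Tpm1 lies on chromosome 9 from 66870397 to 66897213, on the minus strand, and Tpm2 on chromosome 4 from 43527583 to 43536637, on the minus strand. Myl9 lies on chromosome 2 from 156601156 to 156607394, on the plus strand, and Myh11 on chromosome 16 from 14194620 to 14291501, on the minus strand. Counts are sums over the exons of each gene, so isoforms such as the muscle and nonmuscle forms of Tpm1 and Cald1 are not separated.

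With reprogramming of WT cells the whole group fell within 2 days and again by d4. All 9 members fell from d0 to d2, where 30.7% of all 16932 genes tested were lower, with a median log2 fold change of -2.82 over the members and 0.00 over all genes. All 9 fell again from d2 to d4, where 15.2% of all genes were lower (median -1.45, all genes 0.00). From d4 to d6 and from d6 to d8 the test by edgeR's quasi-likelihood method with Benjamini-Hochberg adjustment called 0 of the 9, where 4.67% and 16.1% of all genes changed. An unadjusted p under 0.05 was reached by 2 and 1 of the 9, DESeq2 called 0 and 0, limma voom 0 and 0, and a fit of only the groups compared 1 and 3. From d8 to iPSC 7 of the 9 fell (34.2% of all genes), and all but Cnn1 and Myh11 were among them. Over the whole way from d0 to iPSC all 9 were lower (37.4% of all genes), with a median log2 fold change of -6.46. The plot of levels by stage shows this course for each gene.

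**Figure D1:**
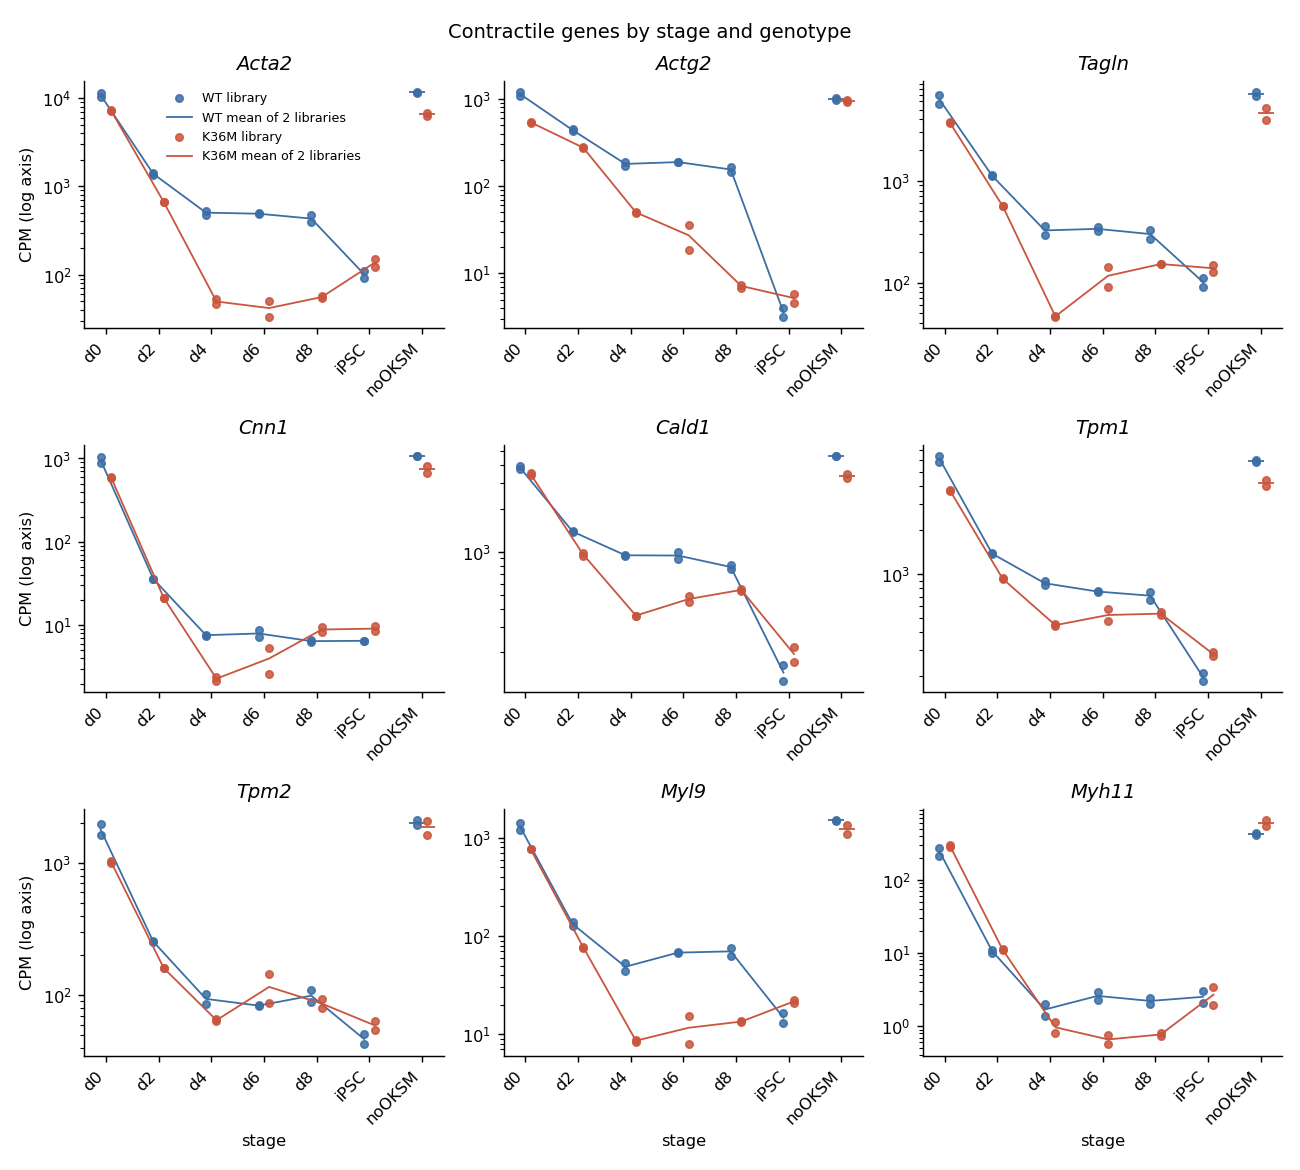
CPM of the 9 contractile genes (log axis) by stage, with points for single libraries, blue for WT and red for K36M, and lines through the means of 2 libraries from d0 to iPSC; noOKSM MEFs stand apart at the right with a dash for the mean. Acta2 stood at 529.9 and 477 CPM in WT and 52.4 and 47.0 CPM in K36M at d4, and the K36M libraries lie under the WT libraries from d4 to d8 for Acta2, Actg2, Tagln, Cald1, Tpm1, Myl9 and Myh11.

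The 2 actins fell in different steps. Acta2, the alpha actin, stood at 11323 and 10303 CPM in the 2 WT d0 libraries, 1353 and 1419 CPM at d2, 529.9 and 477 at d4, 484 and 496 at d6, 472 and 390.1 at d8 and 91.5 and 111 in iPSCs. Its fall was steep in the first step, with a log2 fold change of -2.96 ± 0.15 (SE, adjusted p = 9.64e-14) by edgeR. Actg2, the gamma actin, stood at 1189 and 1081 CPM at d0, 447 and 428 at d2, 189.6 and 169 at d4, 189 and 188 at d6, 165 and 144 at d8 and 3.16 and 4.02 in iPSCs. Its first step, -1.38 ± 0.17 (SE, adjusted p = 1.79e-07), was the smallest of the 9, and its last step from d8 to iPSC, -5.42 ± 0.22 (SE, adjusted p = 1.08e-15), was the largest of the 9 in WT.

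Among the proteins that bind actin, Cnn1 fell most. It stood at 1036 and 887 CPM at d0, 36.2 and 35.8 at d2 and 7.48 and 7.71 at d4, and between d4 and iPSC its WT libraries all lay from 6.22 to 8.71 CPM. Its change from d0 to d2 was -4.74 ± 0.16 (SE, adjusted p = 1.29e-16), a 26.7-fold fall. Tagln stood at 6915 and 5625 CPM at d0, 1102 and 1134 at d2, 355 and 295 at d4 and 91.3 and 111 in iPSCs. Cald1 and Tpm1 are used by nonmuscle cells as well. Cald1 stood at 3782 and 3921 CPM at d0, 935 and 957 at d4 and 127 and 162 in iPSCs. Tpm1 stood at 6408 and 5872 CPM at d0, 888 and 837 at d4 and 186 and 209 in iPSCs. Tpm2 stood at 1961 and 1625 CPM at d0, 103 and 85.3 at d4 and 42.5 and 51.0 in iPSCs. From d0 to d2 these 3 changed by -1.48 ± 0.11, -2.16 ± 0.10 and -2.82 ± 0.18 (log2 ± SE; adjusted p = 9.37e-11, 1.65e-14 and 6.86e-12).

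Both myosin genes fell to a small part of their MEF level by d4. Myl9, the light chain, stood at 1401 and 1201 CPM at d0, 127 and 138 at d2, 53.1 and 44.2 at d4, 76.2 and 63.3 at d8 and 12.9 and 16.6 in iPSCs. From d4 to d8 it rose by 0.52 ± 0.17 (SE, adjusted p = 0.0293), a comparison added after seeing the data. Without WT d4 replicate 2 it was 0.39 and without WT d8 replicate 1 0.42, with adjusted p of 0.237 and 0.168. In the same comparison Tpm1 fell by 0.28 on the log2 scale (SE 0.10, adjusted p = 0.0323; 27% of all genes changed), and missed the threshold without either d4 library, without WT d8 replicate 2 and in a fit of only the groups compared. Myh11, the heavy chain, stood at 215 and 274 CPM at d0 and 11.2 and 10.1 at d2, and its WT libraries from d4 to iPSC lay from 1.38 to 2.98 CPM, with 89 counts in both d4 libraries together. Its fall from d0 to d2 was -4.52 ± 0.17 (SE, adjusted p = 3.53e-16), next to Cnn1's the largest of the 9.

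K36M MEFs at d0 already had less of most contractile transcripts than WT MEFs. Of the 9 members 7 were lower and 0 higher by the test over all genes, where 8.31% of all genes were lower and 7.6% higher. The members' median log2 fold change was -0.72, against 0.00 over all genes. Actg2 stood at 535 and 543 CPM in K36M against 1189 and 1081 in WT, -1.08 ± 0.16 (SE, adjusted p = 6.29e-05). Acta2 stood at 7144 and 7244 CPM against 11323 and 10303, -0.59 ± 0.14 (SE, adjusted p = 0.00592). Neither actin's groups overlapped. Tpm2, Tagln, Myl9, Tpm1 and Cnn1 were lower, at -0.82 ± 0.17, -0.76 ± 0.16, -0.76 ± 0.17, -0.72 ± 0.10 and -0.70 ± 0.14 (log2 ± SE), with adjusted p from 1.19e-05 for Tpm1 to 0.00293 for Myl9. Cald1, at 3508 and 3449 CPM against 3782 and 3921, and Myh11, at 302 and 280.5 CPM against 215 and 274, did not pass, with log2 fold changes of -0.15 ± 0.11 and 0.25 ± 0.14 (adjusted p = 0.411 and 0.244). Without WT d0 replicate 1, 4 members passed, and Acta2, Tagln and Myl9 had adjusted p of 0.0742, 0.0608 and 0.0568. Acta2 also missed the threshold without K36M d0 replicate 1 (adjusted p = 0.0587).

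At d2 both genotypes had less of these transcripts than at d0. K36M cells lay below WT cells for 8 of the 9, where 10.4% of all genes were lower and 9.74% higher (median -0.67, all genes 0.00). All 9 members had fallen from d0 in K36M cells too, where 31.2% of all genes were lower. Acta2 stood at 668 and 660.0 CPM in K36M against 1353 and 1419 in WT, -1.06 ± 0.14 (SE, adjusted p = 7.34e-06). Tagln stood at 558 and 568 CPM against 1102 and 1134, -0.99 ± 0.17 (SE, adjusted p = 0.000101). The other 6 that passed ran from -0.78 ± 0.17 for Myl9 to -0.53 ± 0.11 for Cald1 (adjusted p = 0.00193 and 0.00105), and Myh11 did not pass at 0.06 ± 0.17 (adjusted p = 0.884). The test of whether the K36M difference at d2 was unlike that at d0 called 0 of 9 by edgeR, with 2 at an unadjusted p under 0.05 and 10.6% of all genes changed. DESeq2 called 0 and limma voom 0, no filter on low counts gave 2 and a fit of only the groups compared 3. Tpm2 at d2 missed the threshold without either K36M d2 library (adjusted p = 0.0525 and 0.0531).

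At d4 all 9 members were lower in K36M than in WT, where 25.8% of all genes were lower (median -1.73, all genes 0.02), and within K36M all 9 had fallen from d2 (17.9% of all genes; median -3.16). Acta2 stood at 52.4 and 47.0 CPM in K36M and 529.9 and 477 in WT, 10.1-fold lower, -3.34 ± 0.16 (SE, adjusted p = 5.05e-14). Tagln stood at 47.1 and 45.9 CPM and 355 and 295, 6.98-fold lower, -2.80 ± 0.18 (SE, adjusted p = 7.44e-12). Myl9 stood at 8.36 and 8.83 CPM and 53.1 and 44.2, 5.65-fold lower, -2.50 ± 0.20 (SE, adjusted p = 4.20e-10). For these 3 genes each K36M library lay far under each WT library. Actg2 was lower, at -1.84 ± 0.17, Cnn1 at -1.73 ± 0.22, Cald1 at -1.39 ± 0.11, Tpm1 at -0.95 ± 0.10, Myh11 at -0.86 ± 0.32 and Tpm2 at -0.53 ± 0.18 (log2 ± SE; adjusted p = 4.78e-09, 4.50e-07, 4.15e-10, 2.06e-08, 0.0273 and 0.0137). Myh11 rests on 40 counts in K36M and 89 in WT and missed the threshold with limma voom and without WT d4 replicate 2 or K36M d4 replicate 2 (adjusted p = 0.0882, 0.335 and 0.207; log2 -0.52 without that WT library). Tpm2 missed it without WT d4 replicate 1 or either K36M d4 library (adjusted p from 0.0520 to 0.0835).

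After d4 the members parted in K36M cells. From d4 to d8, a comparison added after seeing the data because the K36M d6 libraries differ, Cnn1, Tagln, Myl9, Cald1 and Tpm1 rose and Actg2 fell, where 23.7% of all genes were higher and 22% lower. Cnn1 went from 2.41 and 2.16 CPM at d4 to 5.38 and 2.61 at d6 and 9.49 and 8.27 at d8, 1.96 ± 0.22 (SE, adjusted p = 1.19e-07). Tagln went from 47.1 and 45.9 CPM at d4 to 142 and 91.2 at d6 and 152 and 152 at d8, 1.71 ± 0.17 (SE, adjusted p = 3.19e-08). Actg2 went the other way, from 49.9 ± 0.457 CPM (mean ± SD, n = 2) to 27.3 ± 12.4 at d6 and 7.15 ± 0.398 at d8, -2.80 ± 0.20 (SE, adjusted p = 1.12e-10). The d4 and d8 libraries of these 3 genes did not overlap. Myl9, Cald1 and Tpm1 rose by 0.65 ± 0.21, 0.59 ± 0.11 and 0.26 ± 0.10 (log2 ± SE; adjusted p = 0.0143, 0.000128 and 0.0305). Myl9 and Tpm1 missed the threshold when any 1 of the 4 libraries was left out (adjusted p up to 0.0791 and 0.226). Acta2, Tpm2 and Myh11 did not pass, with 0.17 ± 0.15, 0.42 ± 0.18 and -0.32 ± 0.39 (adjusted p = 0.382, 0.0576 and 0.541). In WT the same step gave values for Cnn1, Tagln and Actg2 of -0.24 ± 0.18, -0.12 ± 0.16 and -0.21 ± 0.16, none of which passed (adjusted p = 0.361, 0.638 and 0.373). Whether this step differed between genotypes was not tested.

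Step by step in K36M, 5 members rose from d4 to d6 (28.4% of all genes) and 1 fell (26.9%). Tagln, Tpm2, Cnn1, Cald1 and Tpm1 rose by 1.32 ± 0.17, 0.83 ± 0.18, 0.79 ± 0.24, 0.38 ± 0.11 and 0.23 ± 0.10 (log2 ± SE; adjusted p = 1.53e-06, 0.000393, 0.00712, 0.00579 and 0.0474), and Actg2 fell by 0.88 (SE 0.17, adjusted p = 0.000226). When only the groups compared were fitted, which takes the spread from these 4 libraries alone, 1 member passed. Without K36M d6 replicate 1, Cnn1 was at 0.19 and Tpm1 at 0.09 (adjusted p = 0.510 and 0.444). Without K36M d6 replicate 2, Cnn1 was at 1.23 and Tpm1 at 0.36. Without K36M d6 replicate 1 and without replicate 2, Tagln was at 0.97 and 1.61, Tpm2 at 0.42 and 1.16, Cald1 at 0.31 and 0.45 and Actg2 at -1.43 and -0.47. From d6 to d8 Cnn1 and Acta2 rose by 1.17 ± 0.19 and 0.42 ± 0.15 (23.8% of all genes; adjusted p = 5.54e-05 and 0.0258) and Actg2 fell by 1.93 (SE 0.20, adjusted p = 3.92e-07; 22.9% of all genes). Here 1 member passed when only the groups compared were fitted, 6 with no filter on low counts and 5 without K36M d6 replicate 1, and Acta2 was at 0.14 without K36M d6 replicate 2 (adjusted p = 0.383). Without replicate 1 and without replicate 2 of K36M d6, Cnn1 was at 1.77 and 0.72 and Actg2 at -1.37 and -2.33. Acta2 was at 0.75 without K36M d6 replicate 1.

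At d6, 8 members were lower in K36M than in WT and 1 was higher, where 33.7% of all genes were lower and 37.3% higher (median -1.53, all genes 0.08). Acta2 had the largest difference, 50.6 and 33.3 CPM against 484 and 496, -3.55 ± 0.16 (SE, adjusted p = 9.92e-15), and its groups did not overlap. Actg2, Myl9, Myh11, Tagln, Cnn1, Cald1 and Tpm1 were lower, at -2.79 ± 0.18, -2.55 ± 0.19, -1.97 ± 0.32, -1.53 ± 0.17, -1.01 ± 0.20, -1.01 ± 0.11 and -0.53 ± 0.10 (log2 ± SE), with adjusted p from 4.66e-12 for Actg2 to 9.30e-05 for Cnn1. Tpm2 stood at 145 and 86.8 CPM in K36M against 84.6 and 82.5 in WT, 0.47 ± 0.17 (SE, adjusted p = 0.0206). Without K36M d6 replicate 1 it was at 0.05 (adjusted p = 0.779), and it also missed the threshold without either WT library (adjusted p = 0.0814 and 0.104). In a fit of only the groups compared, Tpm2 and Cnn1 missed it (adjusted p = 0.214 and 0.0624). Without K36M d6 replicate 1 and without replicate 2, Acta2 was at -3.88 and -3.28, Actg2 at -3.35 and -2.39, Myl9 at -3.11 and -2.14, Tagln at -1.88 and -1.25 and Cnn1 at -1.61 and -0.56. In the same fits Myh11 was at -2.19 and -1.77, Cald1 at -1.08 and -0.93 and Tpm1 at -0.67 and -0.40. Tpm2 was at 0.79 without K36M d6 replicate 2.

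At d8 the differences between genotypes ran in both directions. Of the 9 members 7 were lower in K36M and 1 higher, where 29% of all genes were lower and 31.6% higher (median -0.98, all genes 0.04). Actg2 stood at 7.43 and 6.87 CPM in K36M and 165 and 144 in WT, 21.6-fold lower, -4.43 ± 0.20 (SE, adjusted p = 2.09e-14). Acta2 stood at 57.4 and 54.4 CPM and 472 and 390.1, 7.71-fold lower, -2.95 ± 0.16 (SE, adjusted p = 1.99e-13). Myl9 stood at 13.6 and 13.4 CPM and 76.2 and 63.3, -2.37 ± 0.19 (SE, adjusted p = 3.62e-10). In both actins and the light chain the groups lay far apart. Myh11, with 32 counts in the K36M libraries and 138 in the WT libraries, was lower, at -1.53 ± 0.31, Tagln at -0.98 ± 0.17, Cald1 at -0.53 ± 0.11 and Tpm1 at -0.41 ± 0.10 (log2 ± SE; adjusted p = 0.000202, 2.50e-05, 0.000263 and 0.000935). Cnn1 was higher, 9.49 and 8.27 CPM against 6.22 and 6.66, 0.46 ± 0.18 (SE, adjusted p = 0.0305). It missed the threshold when any 1 of the 4 libraries was left out, with adjusted p from 0.0810 to 0.328 and a log2 fold change down to 0.27. Tpm2 did not pass, at -0.20 ± 0.17 (adjusted p = 0.339), and its groups overlapped.

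The difference between genotypes itself changed from d2 to d8 for 5 members. For Actg2, Acta2, Myh11 and Myl9 it moved downwards, where it did so for 21.2% of all genes, and for Cnn1 upwards, where it did so for 15.9%. The change was -3.77 ± 0.26 (SE, adjusted p = 6.67e-11) for Actg2, -1.89 ± 0.20 (SE, adjusted p = 1.24e-07) for Acta2, -1.59 ± 0.25 (SE, adjusted p = 2.80e-05) for Myl9 and -1.59 ± 0.36 (SE, adjusted p = 0.00112) for Myh11. For Cnn1 it was 1.22 ± 0.24 (SE, adjusted p = 0.000229). For Tagln, Cald1, Tpm1 and Tpm2 it was 0.01 ± 0.23, 0.00 ± 0.16, 0.16 ± 0.14 and 0.47 ± 0.24 (log2 ± SE) and did not pass. The plot of differences by stage shows that at d8 the members spread from Actg2 at -4.43 to Cnn1 at 0.46, whereas at d2 all 9 lay from -1.06 to 0.06.

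**Figure D2:**
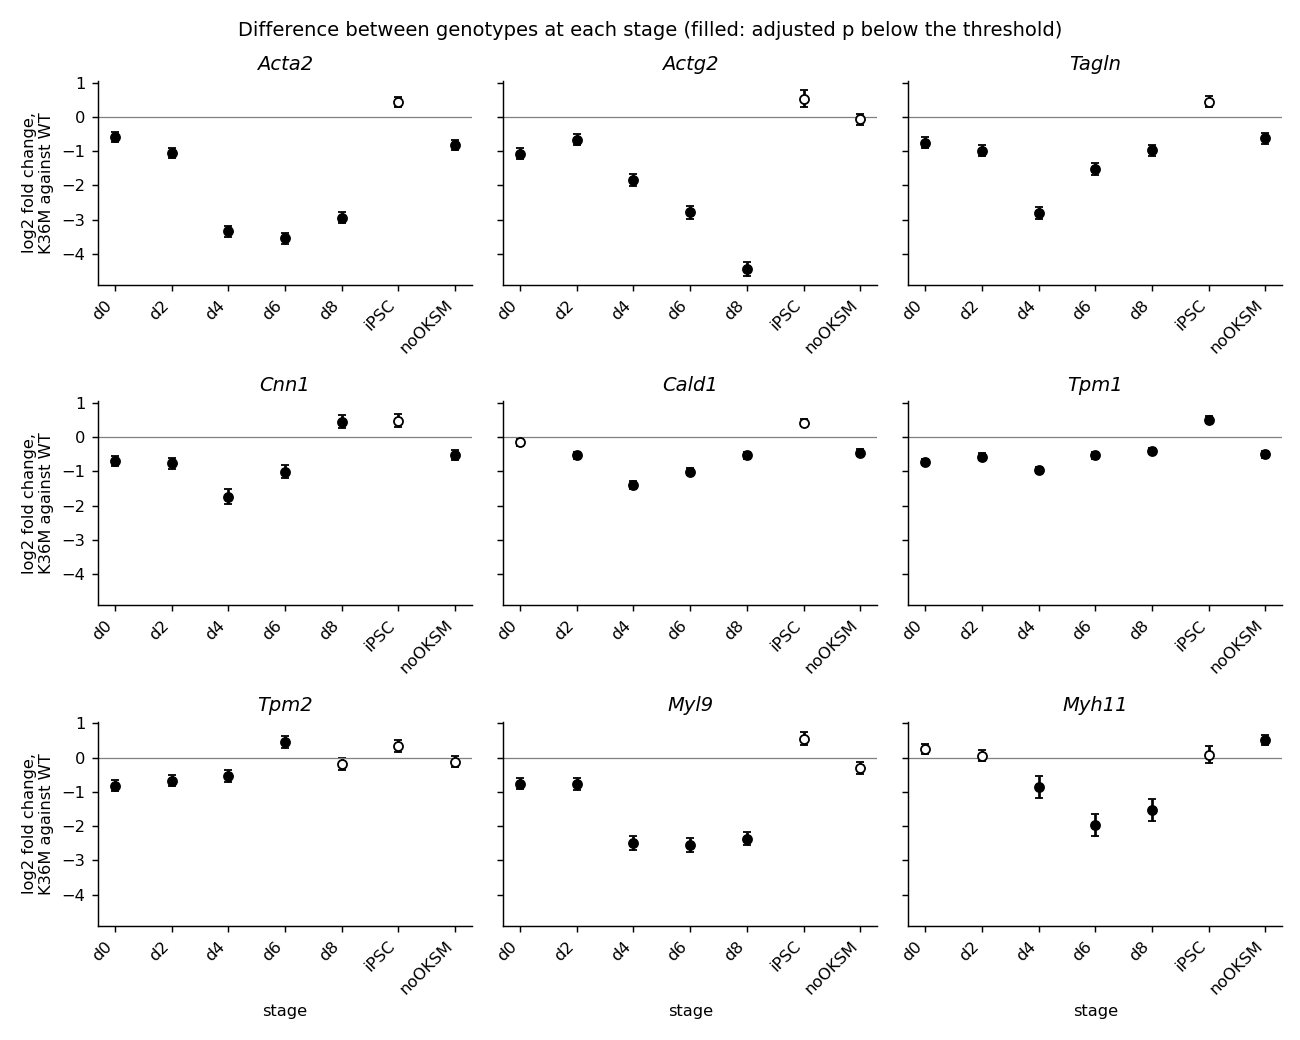
Log2 fold change of K36M against WT for each contractile gene at 7 stages, with bars of 1 SE from the edgeR fit of 14 groups; filled points passed an adjusted p of 0.05 over all genes. Actg2 moves down from -0.67 at d2 to -4.43 at d8, Tagln returns from -2.80 at d4 to -0.98 at d8, and of the iPSC points only that of Tpm1 is filled.

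In passaged iPSCs few differences passed the test. Of the 9 members 1 was higher in K36M, Tpm1 at 273 and 290.5 CPM against 186 and 209, 0.51 ± 0.10 (SE, adjusted p = 0.00613), where 0.756% of all genes were higher. The fitted values of the other 8 ran from 0.08 for Myh11 to 0.55 for Myl9 and none passed. All 9 values lay above 0, and an unadjusted p under 0.05 by edgeR was reached by 7 of the 9. The count of members called depended on the setting: 6 with no filter on low counts, 4 with only the groups compared, 2 with DESeq2, 2 with limma voom, and from 0 to 2 when 1 library was left out. Tpm1 missed the threshold without WT iPSC replicate 1 or K36M iPSC replicate 2 (adjusted p = 0.209 and 0.131). Acta2, which did not pass, stood at 121 and 152 CPM in K36M against 91.5 and 111 in WT. From d8 to iPSC, K36M cells gained Acta2, 57.4 and 54.4 CPM at d8, Myh11 and Myl9, with 1.29 ± 0.15, 1.80 ± 0.32 and 0.68 ± 0.20 (log2 ± SE; 27.1% of all genes higher; adjusted p = 1.60e-07, 5.79e-05 and 0.00548). They lost Cald1, Tpm1 and Tpm2, with -1.48 ± 0.11, -0.92 ± 0.10 and -0.54 ± 0.18 (24.5% of all genes lower; adjusted p = 2.51e-10, 4.61e-08 and 0.0130). Without K36M iPSC replicate 1 and without replicate 2, Acta2 was at 1.45 and 1.12, Myh11 at 2.14 and 1.35, Myl9 at 0.73 and 0.64, Cald1 at -1.31 and -1.67, Tpm1 at -0.88 and -0.97 and Tpm2 at -0.44 and -0.66. Tpm2 missed the threshold without K36M iPSC replicate 1. In WT the same step took Acta2 down by 2.09 on the log2 scale (SE 0.15, adjusted p = 2.02e-11; -1.95 and -2.24 without WT iPSC replicate 1 and without replicate 2); the difference between these steps was not tested. Against their own MEFs at d0, K36M iPSCs were lower in all 9 (36.1% of all genes; median -5.15).

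MEFs without OKSM were compared with the d0 MEFs of the same genotype, and between genotypes. In WT 1 member differed from d0, Myh11, which was higher with 432 and 414 CPM against 215 and 274, 0.79 ± 0.14 (SE, adjusted p = 0.000595), where 4.15% of all genes were higher. In K36M 4 members were higher than at d0 (18.8% of all genes): Myh11, Tpm2, Actg2 and Myl9, by 1.06 ± 0.14, 0.87 ± 0.17, 0.82 ± 0.16 and 0.67 ± 0.17 (log2 ± SE; adjusted p = 4.22e-06, 0.000427, 0.000514 and 0.00375). Myl9 missed the threshold without K36M noOKSM replicate 2 (adjusted p = 0.0797). Between genotypes, 5 were lower in K36M (16.7% of all genes) and 1 higher (18.2%), with a median of -0.45 over the members and 0.01 over all genes. Acta2, at 6312 and 6792 CPM against 11492 and 11597, Tagln, Cnn1, Tpm1 and Cald1 were lower, at -0.82 ± 0.14, -0.63 ± 0.16, -0.52 ± 0.14, -0.50 ± 0.10 and -0.45 ± 0.11 (log2 ± SE; adjusted p = 8.99e-05, 0.00422, 0.00527, 0.000278 and 0.00263). Myh11 was higher, 662 and 552 CPM against 432 and 414, 0.52 ± 0.14 (SE, adjusted p = 0.00522). Without K36M noOKSM replicate 1, 3 members passed, and Cnn1, Tagln and Myh11 had adjusted p of 0.0689, 0.0777 and 0.0715. Actg2 at 918 and 981 CPM against 1019.8 and 971 did not pass (-0.07 ± 0.16, adjusted p = 0.794), and its difference was unlike that at d0 by 1.01 ± 0.23 (SE, adjusted p = 0.00290). For Tpm2 this change was 0.70 ± 0.24 (SE, adjusted p = 0.0361) (upwards in 12.8% of all genes). It missed the threshold in 6 of the 8 fits that left out 1 library.

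Ranked over the 14 groups, each member was highest in the 4 groups of MEFs and next in WT d2, except that Myh11 stood slightly higher in K36M d2 (11.1 ± 0.268 CPM, mean ± SD, n = 2) than in WT d2 (10.6 ± 0.738), whose libraries overlapped. Acta2 ran from 11545 ± 74.2 CPM in WT noOKSM to 41.9 ± 12.2 in K36M d6, and both genotypes' iPSCs stood above K36M d8, d4 and d6. Actg2, Tpm1, Tpm2 and Cald1 were lowest in WT iPSC, with 3.59 ± 0.607, 198 ± 16.9, 46.8 ± 6.05 and 145 ± 25.1 CPM. Cnn1, Tagln and Myl9 were lowest in K36M d4, with 2.29 ± 0.177, 46.5 ± 0.820 and 8.60 ± 0.328 CPM. Of the 13 steps between neighbours in this order, the libraries overlapped in 2 for Acta2 (WT d4 and WT d6, K36M d4 and K36M d6), 2 for Actg2, 3 for Tpm1, 3 for Cald1, 4 for Cnn1, 5 for Tagln and 6 for each of Myl9, Tpm2 and Myh11.

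The members varied together, as a description: over the 28 libraries, Pearson's r of log2(CPM + 1) ran from 0.741 to 0.990 over the 36 pairs of members, with a median of 0.933. The points share their libraries, and most of the range lies between MEFs and the other cells. Within the 16 libraries of d2 to d8 the highest r was 0.984 for Acta2 and Myl9 and the lowest 0.556 for Actg2 and Tpm2.

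The 5 genes outside the group whose course over the 28 libraries was most like the members' mean were Fkbp9, Mtap6, Nexn, Tgfb1i1 and Plod3, with r of 0.989, 0.988, 0.988, 0.987 and 0.986 between log2(CPM + 1) and the mean of the members' z-scores. They were picked by their course over the same libraries, K36M d4 and WT d4 included. A lower level in K36M at d4 is therefore partly built into the choice, and the tests below are no separate support. At d4, 25.8% of all genes were lower in K36M. Tgfb1i1, which codes for Hic-5, a protein of focal adhesions, went from 266 CPM in WT d0 to 22.3 in WT d4 and 3.25 in K36M d4, and was lower in K36M at d4, with -2.78 ± 0.21 (SE, adjusted p = 2.05e-10). Nexn, which codes for nexilin, an actin-binding protein, was lower in K36M at d4, with -2.01 ± 0.15 (SE, adjusted p = 1.16e-10). Fkbp9 and Plod3, enzymes of the endoplasmic reticulum, and Mtap6, a microtubule-binding protein, had smaller differences at d4, -0.49 ± 0.07, -0.80 ± 0.11 and -0.87 ± 0.13 (log2 ± SE; adjusted p = 5.54e-06, 2.71e-06 and 8.85e-06).

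All members but Cald1 have close relatives that most cells express. The share a smooth muscle isoform takes of its family does not depend on how a library is scaled. Acta2 and Actg2 together made up 65.1% ± 0.269 of the CPM per kb of 4 actins (with Actb and Actg1) in WT d0 (mean ± SD, n = 2), 21.3% ± 0.300 in WT d4, 4.69% ± 0.101 in K36M d4 and 5.89% ± 0.706 in WT iPSC. Both K36M d4 libraries lay under both WT iPSC libraries. Tagln made up 90.7% ± 0.781 of Tagln and Tagln2 in WT d0, 62.0% ± 2.31 in WT d4, 13.0% ± 0.172 in K36M d4 and 42.0% ± 3.60 in WT iPSC, and in K36M its share was 39.6% ± 0.0968 at d8. Cnn1 made up 27.5% ± 0.667 of the 3 calponins in WT d0, 0.732% ± 0.0634 in WT d4, 0.315% ± 0.0280 in K36M d4 and 1.00% ± 0.0114 in WT iPSC. Tpm2 made up 23.7% ± 1.43 of the 4 tropomyosins in WT d0 and 6.31% ± 0.479 in WT d4, close to 6.36% ± 0.132 in K36M d4, and 9.89% ± 0.572 in WT iPSC. At d4 the 3 shares of actin, transgelin and calponin lay lower in K36M than in WT in every library, and that of Tpm2 overlapped.

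**Figure D3:**
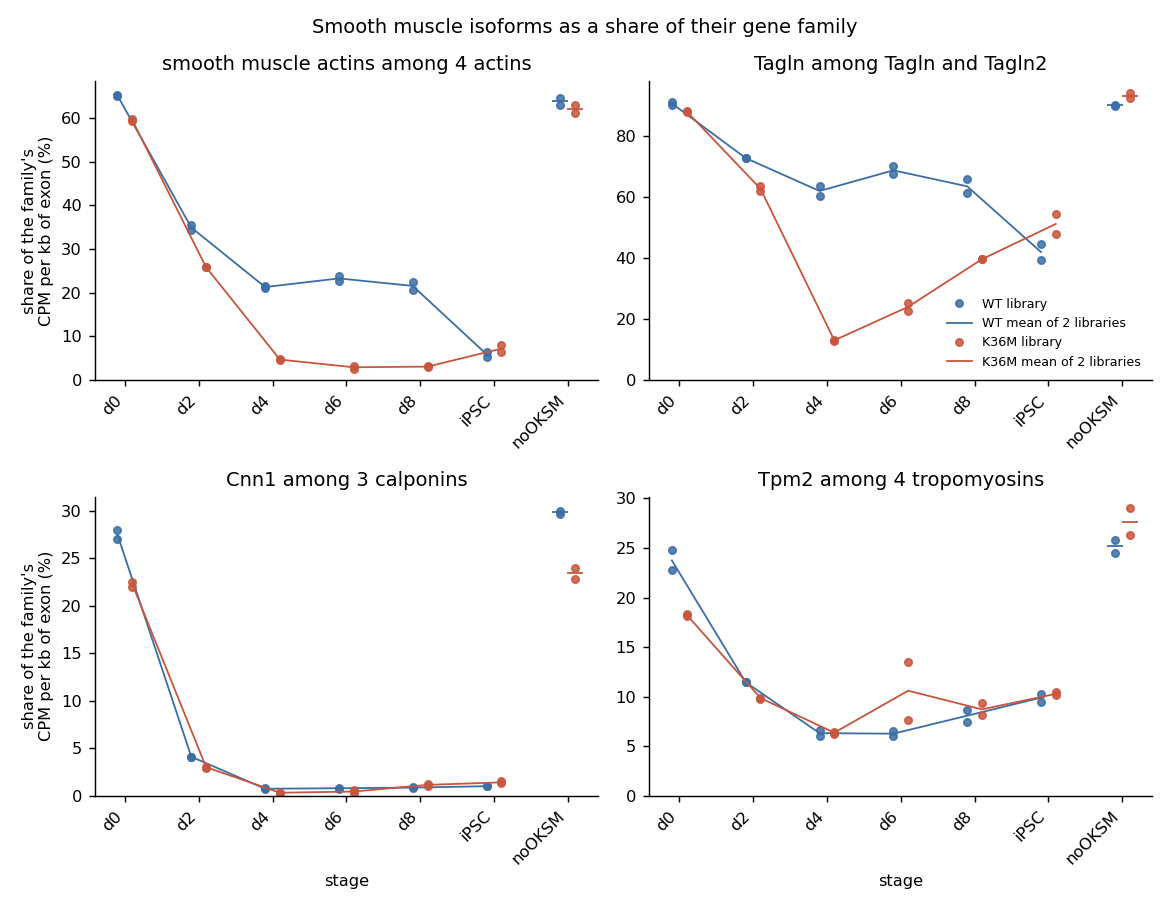
Share (percent) of CPM per kb of exon that the smooth muscle isoform takes within its gene family, by stage, with points for single libraries and lines through the means of 2, blue for WT and red for K36M. The actin share of K36M falls to 4.69% ± 0.101 at d4 and stays low to d8, while the Tagln share of K36M rises again to 39.6% ± 0.0968 at d8.

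Other genes of smooth muscle contraction, a list of 16 chosen for this description with earlier results known, fell with the members in WT. All 16 were lower at d2 than at d0, where 30.7% of all genes were, with a median log2 fold change of -2.06. Mylk, the kinase that phosphorylates the light chain, went from 84.3 and 80.9 CPM to 0.817 and 1.23, -6.32 ± 0.17 (SE, adjusted p = 3.17e-18), and Lmod1, leiomodin, from 310.1 and 295 CPM to 10.2 and 11.2, -4.82 ± 0.17 (SE, adjusted p = 1.56e-16). Pgm5 and Synpo2, proteins of actin-rich adhesions and of actin bundles, fell by 6.96 and 3.56 on the log2 scale (SE 0.30 and 0.19; adjusted p = 8.25e-15 and 2.25e-13), Pgm5 with 5 counts left in the WT d2 libraries. Between genotypes, 3 of 16 were lower in K36M and 1 higher at d0, 7 lower and 1 higher at d2, and 8 lower and 6 higher at d8 (medians -0.22, -0.45 and -0.51). Of all genes, 8.31% lower and 7.6% higher at d0, 10.4% lower and 9.74% higher at d2 and 29% lower and 31.6% higher at d8 were called, so that the 6 of 16 higher at d8 are near the background. At d2, Itga8, an integrin, Lmod1 and Actn1, an actinin, were lower, at -1.29 ± 0.23, -0.69 ± 0.18 and -0.64 ± 0.11 (log2 ± SE; adjusted p = 0.000231, 0.00755 and 0.000189). Ppp1r14a, an inhibitor of the phosphatase of the light chain, was higher at d2 by 1.30 ± 0.23 (SE, adjusted p = 0.000204). At d8 Mylk was lower, at -2.64 ± 0.32 (SE, adjusted p = 2.44e-07) with 12 counts in K36M, and Nexn at -1.33 ± 0.16 (SE, adjusted p = 1.58e-07). Smtn, smoothelin, was higher with 39.1 and 40.1 CPM against 11.4 and 12.4, 1.73 ± 0.12 (SE, adjusted p = 3.77e-11). Pgm5 had 0 counts in K36M d8 and 16 in WT d8 and passed as lower (adjusted p = 0.000282).

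Nonmuscle relatives of the members fell as well. Of 12, 10 fell from WT d0 to d2 (30.7% of all genes; median -1.11), among them Cnn2, calponin 2, at -2.19 ± 0.10, Myl6, an essential light chain, at -1.63 ± 0.14, Myl12a at -1.54 ± 0.11 and Tpm4 at -1.27 ± 0.12 (log2 ± SE; adjusted p = 2.43e-14, 6.99e-10, 4.12e-11 and 3.80e-09). In K36M against WT, 7 of 12 were lower and 0 higher at d0, 6 and 0 at d2, and 3 and 4 at d8 (medians -0.30, -0.34 and -0.09). Lower genes made up 8.31% of all genes at d0 and 10.4% at d2. At d8 the background was 29% lower and 31.6% higher, and both counts of this list are near it. At d2 the nonmuscle myosins Myh9 and Myh10 were lower, at -0.58 ± 0.12 and -0.50 ± 0.12, Cnn2 at -0.46 ± 0.10 and Tpm4 at -0.43 ± 0.12 (adjusted p = 0.00102, 0.00368, 0.00163 and 0.0111). At d8 the light chain Myl12b, Cnn2, Tagln2 and Myh10 were higher by 1.11 ± 0.12, 0.48 ± 0.10, 0.44 ± 0.10 and 0.40 ± 0.12 (adjusted p = 2.37e-08, 0.000270, 0.000604 and 0.00550). Relatives used mainly outside smooth muscle, in heart and skeletal muscle or, for Tagln3, in neurons, form a list of 7, of which 6 were tested. At d8 in K36M 5 were higher and 1, Tagln3, lower (31.6% and 29% of all genes). At d0, 2 were higher and 1 lower (7.6% and 8.31% of all genes), and at d2, 2 and 0 (9.74% and 10.4%). Actc1, the cardiac actin, stood at 5.18 and 4.26 CPM in K36M d8 against 0.166 and 0.376, 4.00 ± 0.45 (SE, adjusted p = 8.31e-08), and Acta1, the skeletal actin, at 10.3 and 9.87 CPM against 1.95 and 1.10, 2.78 ± 0.32 (SE, adjusted p = 1.93e-07). Myh6 and Myl7, cardiac myosin chains, were higher by 3.97 ± 0.45 and 3.05 ± 0.69 (adjusted p = 3.28e-07 and 0.000663) from 11 and 4 counts in WT to 120 and 24 in K36M. At d2 Myl7 and Tagln3, a neuronal transgelin, were higher in K36M by 3.20 ± 0.56 and 0.73 ± 0.22 (adjusted p = 0.000230 and 0.0219), Myl7 with 46 counts against 6. From WT d0 to d2 Acta1 fell by 5.99 on the log2 scale and Tagln3 rose by 2.07 (SE 0.27 and 0.31; adjusted p = 5.69e-14 and 4.23e-06).

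The transcription factors that act on these genes were measured in the same libraries. Srf stood at 159 and 163 CPM in WT d0 and 94.5 and 83.1 at d2, -0.86 ± 0.09 (SE, adjusted p = 4.38e-08), and did not pass between genotypes at any stage from d0 to iPSC, where its log2 fold changes ran from -0.07 to 0.01. Myocd, myocardin, stood at 2.74 and 2.96 CPM in WT d0, with 109 counts in both libraries, and at 0.327 and 0.579 at d2, -2.63 ± 0.37 (SE, adjusted p = 1.93e-06). From d4 to iPSC no group of either genotype held more than 13 counts. Mkl1 stood at 103 and 115 CPM in WT d0 and 35.7 and 34.6 at d2, -1.63 ± 0.14 (SE, adjusted p = 4.03e-10), and in K36M at 102 and 97.6 at d0 and 21.1 and 21.4 at d2. It was lower in K36M at d2, d4 and d6, with -0.73 ± 0.14, -0.40 ± 0.14 and -0.84 ± 0.14 (log2 ± SE; adjusted p = 0.000476, 0.0245 and 2.10e-05). It did not pass at d0 or d8 (-0.13 ± 0.13 and -0.29 ± 0.14, adjusted p = 0.573 and 0.0777). Mkl2 was lower in K36M at d4 and d6, with -0.48 ± 0.16 and -1.47 ± 0.17 (adjusted p = 0.0176 and 7.42e-08). In noOKSM MEFs, where Myh11 was higher in K36M, Myocd was lower, 0.932 and 1.03 CPM against 4.09 and 3.79 (adjusted p = 2.01e-05), as were Mkl1 and Srf, at -0.64 ± 0.13 and -0.32 ± 0.09 (adjusted p = 0.000504 and 0.00983).

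Of the list of 10 that holds these factors and their partners and repressors, 1 rose and 5 fell from WT d0 to d2 (27.1% and 30.7% of all genes). Klf4, which is both a reprogramming factor and a repressor of smooth muscle genes, rose by 2.39 ± 0.14 (SE, adjusted p = 7.06e-13). Its endogenous and introduced transcripts were not told apart. The LIM proteins Fhl2 and Csrp1 fell by 2.78 and 1.92 on the log2 scale (SE 0.16 and 0.09; adjusted p = 1.19e-12 and 6.82e-15). Between genotypes 2 were lower and 1 higher in K36M at d0, 3 and 1 at d2, and 1 and 3 at d8. Over all genes 8.31% lower and 7.6% higher were called at d0, 10.4% lower and 9.74% higher at d2 and 29% lower and 31.6% higher at d8, so that the 3 of 10 higher at d8 are near the background. At d2 Csrp1 and Csrp2, LIM proteins that assist SRF, were lower, at -0.66 ± 0.08 and -0.66 ± 0.12 and Klf5 was higher by 0.44 ± 0.12 (log2 ± SE; adjusted p = 2.68e-06, 0.000238 and 0.00911). At d8 Klf5, Csrp2 and Csrp1 were higher by 1.33 ± 0.11, 0.88 ± 0.12 and 0.20 ± 0.08, and Klf4 was lower, at -0.54 ± 0.13 (adjusted p = 4.85e-10, 1.12e-06, 0.0372 and 0.00110).

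**Figure D4:**
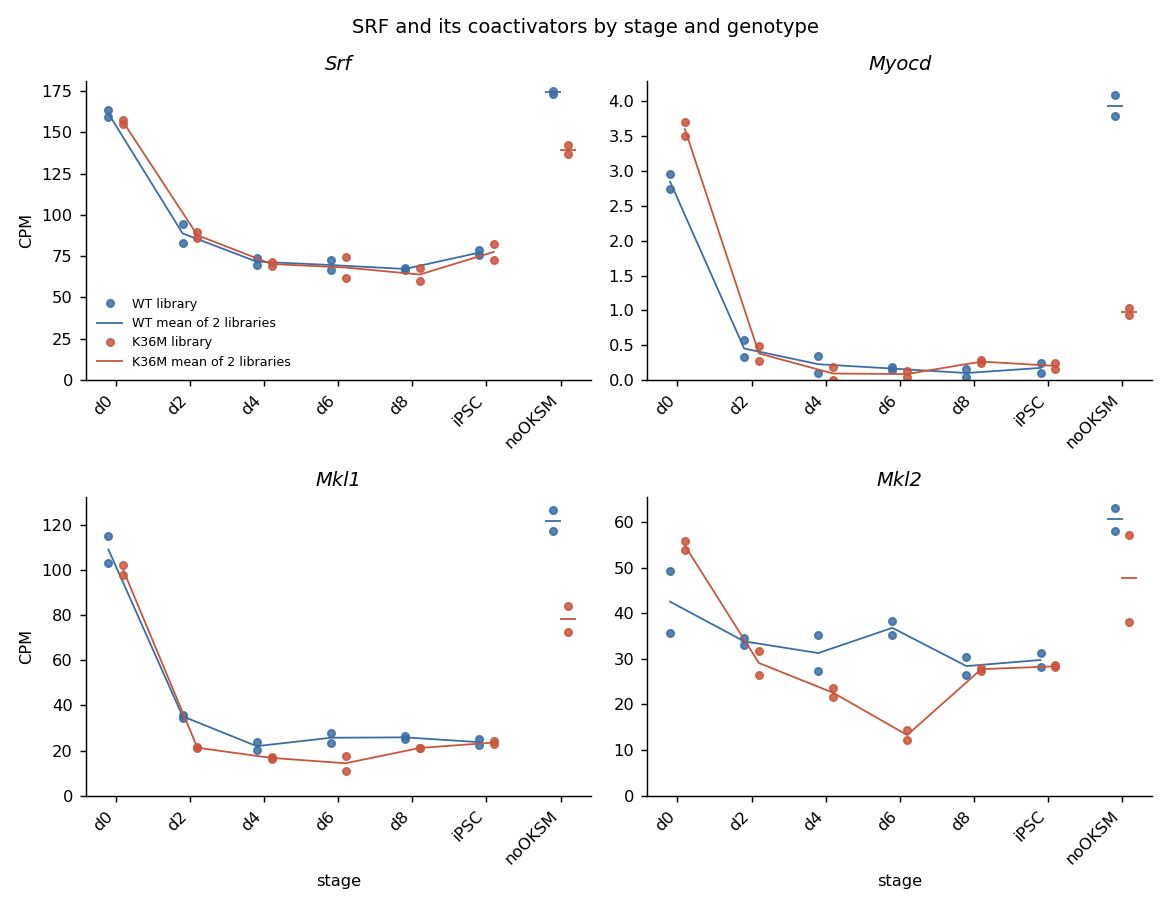
CPM of Srf, Myocd, Mkl1 and Mkl2 by stage, with points for single libraries and lines through the means of 2, blue for WT and red for K36M. Srf is lower at d2 than at d0 in both genotypes, while Mkl1 in K36M lies under WT at d2 (21.1 and 21.4 against 35.7 and 34.6 CPM), and Myocd is near 0 after d0 outside noOKSM.

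Markers of other cell types moved beside the contractile genes, and their part in these results was not tested. Their counts can be read against all genes. Between genotypes, 8.31% lower and 7.6% higher were called at d0, and 10.4% lower and 9.74% higher at d2. The shares were 29% lower and 31.6% higher at d8, and 30.7% lower and 27.1% higher from WT d0 to d2. The 8 fibroblast markers, which define the labelled cell type, summed to 21806 and 26863 CPM in WT d0 and 29797 and 30206 in K36M d0, with 4 of 8 higher and 0 lower in K36M and none at 0, at a stage where 7 contractile genes were lower. At d2 the sums were 3126 and 3058 in WT and 1807 and 1787 in K36M (5 lower and 0 higher of 8), and at d8 2023 and 1934 in WT and 109 and 125 in K36M (7 lower and 0 higher). From WT d0 to d2 all 8 fell, Postn, Col1a1, Pdgfra and Thy1 by the most, with -5.62 ± 0.17, -4.89 ± 0.24, -4.84 ± 0.26 and -2.97 ± 0.15 (log2 ± SE; adjusted p = 2.64e-17, 1.08e-13, 2.49e-13 and 5.93e-14). Postn, Col1a2, Col1a1 and Col3a1 were lower in K36M at d2, with -1.91 ± 0.17, -0.99 ± 0.17, -0.88 ± 0.21 and -0.64 ± 0.16 (adjusted p = 1.20e-08, 0.000146, 0.00333 and 0.00624), and Col1a2, Fbn1, Col1a1 and Thy1 at d8, with -4.79 ± 0.20, -4.47 ± 0.26, -4.05 ± 0.23 and -3.41 ± 0.16 (adjusted p = 4.67e-15, 3.72e-12, 2.58e-12 and 3.22e-14).

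The 8 markers of pluripotent cells summed to 32.7 and 29.0 CPM in WT d4 and 1197 and 1201 in K36M d4, a stage at which all 9 members were lower in K36M. They summed to 782 and 729.8 in WT and 2589 and 2588 in K36M at d8 (0 lower and 8 higher), and to 5332 and 5355 in WT and 5636 and 5292 in K36M in iPSCs. At 0 were 2 of the 8 in the d0 and noOKSM groups of both genotypes, 1 in WT d2 and 1 in WT d4. At d2 4 were higher in K36M: Cdh1, Epcam and Esrrb by 4.24 ± 0.31, 3.00 ± 0.20 and 2.89 ± 0.98 (log2 ± SE; adjusted p = 7.28e-10, 1.87e-10 and 0.0434), Esrrb from 5 counts in WT, and Zfp42 with 23 counts against 1 (adjusted p = 0.0100). Zfp42, Lin28a, Dppa5a and Tdgf1 were higher at d8 by 4.95 ± 0.26, 3.78 ± 0.15, 3.15 ± 0.39 and 2.93 ± 0.23 (adjusted p = 6.63e-12, 2.41e-14, 2.18e-06 and 6.94e-10). In WT, Nanog was lower at d2 than at d0, with 8 counts against 20, -1.69 ± 0.44 (SE, adjusted p = 0.00537).

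The 7 pericyte markers, of cells that share contractile genes with smooth muscle, summed to 629.8 and 749.7 CPM in WT d0, 869 and 874 in K36M d0, 138 and 143 in WT d8 and 265 and 267 in K36M d8. They counted 1 lower and 2 higher at d0, 2 lower and 2 higher at d2 and 3 lower and 3 higher at d8 in K36M, so that they moved in both directions at each of these stages. At d2 Rgs5 was higher by 1.78 ± 0.15 (SE, adjusted p = 5.46e-09) and Abcc9 with 14 counts against 2 (adjusted p = 0.0274), and Cspg4 and Pdgfrb were lower, at -1.02 ± 0.17 and -0.84 ± 0.23 (adjusted p = 7.70e-05 and 0.0109). At d8 Cspg4 and Pdgfrb were lower, at -2.41 ± 0.21 and -1.80 ± 0.18 (adjusted p = 1.11e-09 and 1.01e-08), and Anpep was higher by 1.98 ± 0.17 (SE, adjusted p = 1.33e-09), as was Kcnj8 with 11 counts against 3 (adjusted p = 0.0192). From WT d0 to d2 5 of 7 fell, among them Pdgfrb and Cspg4, at -6.31 ± 0.20 and -2.42 ± 0.16 (adjusted p = 2.64e-17 and 1.15e-11), Abcc9 from 56 counts to 2 and Kcnj8 from 31 to 1 (adjusted p = 2.36e-06 and 1.39e-05). The 7 endothelial markers summed to 8.64 and 11.1 CPM in WT d0 and 7.55 and 8.34 in K36M d0, with 2 of the 7 at 0 in each group, and to 132 and 128 in WT and 98.2 and 105 in K36M at d2. From WT d0 to d2 1 of the 7 was higher and 2 lower. Tek, the angiopoietin receptor, rose by 7.39 ± 0.25 (SE, adjusted p = 8.57e-17), from 0.429 and 1.07 CPM to 129 and 127, which makes up most of the sum at d2. Kdr fell, at -1.33 ± 0.28 (SE, adjusted p = 0.000229), and Emcn went from 141 counts to 3 (adjusted p = 6.86e-09). Between genotypes they counted 0 lower and 1 higher at d0, 1 lower and 1 higher at d2 and 3 lower and 2 higher at d8. Pecam1 was higher and Kdr lower in K36M at d2, at 2.12 ± 0.61 and -1.08 ± 0.35 (adjusted p = 0.0152 and 0.0302), and at d8 Tie1 and Pecam1 were higher by 4.49 ± 0.39 and 2.72 ± 0.19 and Kdr and Cldn5 lower, at -2.88 ± 0.43 and -2.22 ± 0.29 (adjusted p = 1.07e-08, 3.85e-11, 4.85e-06 and 2.66e-06).

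The 7 macrophage markers summed to 48.4 and 45.6 CPM in WT d0 and 15.4 and 14.9 in K36M d0 (3 lower and 0 higher of 7). The sums were 10.5 and 11.2 in WT and 3.86 and 4.01 in K36M at d2 (2 lower and 0 higher) and 9.91 and 10.5 in WT and 20.2 and 16.1 in K36M at d8 (2 lower and 2 higher). At d2 Lyz2 and Cd68 were lower, at -3.39 ± 0.48 and -1.39 ± 0.23 (log2 ± SE; adjusted p = 1.42e-05 and 0.000102). At d8 Csf1r and Cd68 were higher by 3.55 ± 0.33 and 1.09 ± 0.19 (adjusted p = 4.35e-09 and 3.62e-05), and Lyz2 and Emr1 were lower, with 2 counts against 153 and 1 against 17 (adjusted p = 8.90e-08 and 0.0206). From WT d0 to d2 6 of 7 fell and 1 rose. Among those that fell, Ptprc, Csf1r and Lyz2 were at -4.18 ± 0.51, -3.87 ± 0.31 and -3.44 ± 0.25 (adjusted p = 3.43e-07, 2.17e-10 and 3.52e-11), and Fcer1g went from 85 counts to 2 (adjusted p = 5.15e-08). The 8 skeletal muscle markers, of which 4 passed the filter, summed to 495 and 445 CPM in WT d0 and 279 and 289 in K36M d0, most of it Acta1 and Des. From WT d0 to d2 3 fell: Acta1 and Des, at -5.99 ± 0.27 and -4.82 ± 0.17 (adjusted p = 5.69e-14 and 1.82e-16), and Tnnt3, from 17 counts to 1 (adjusted p = 0.00258). At d8 they summed to 17.7 and 16.0 in WT and 68.0 and 67.0 in K36M (0 lower and 4 higher). Besides Acta1, given above with its relatives, Tnnt3 and Mylpf were higher in K36M d8 by 3.97 ± 0.50 and 1.48 ± 0.22 (adjusted p = 5.77e-07 and 4.67e-06). Des, desmin, which smooth muscle also makes, stood at 20.7 and 19.2 CPM in K36M d8 against 2.82 and 2.53, 2.91 ± 0.17 (SE, adjusted p = 1.98e-12), and was higher at d2 as well, by 1.30 ± 0.19 (SE, adjusted p = 1.75e-05).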

How the data were processed

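Poly(A) RNA-seq of 28 libraries was read from 1 table of whole-number counts per gene that the authors deposited. The submitters' processing notes name mm9 as build and STAR 2.5.0, HTSeq 0.11.2 and edgeR as tools. The strand setting and annotation of the counting are not given. Columns were matched to samples by name (0 unused). The 9 members and the other lists were chosen with earlier results of these data known. Counts were TMM-scaled, filtered by filterByExpr (minimum count 10, minimum total 15) and fitted in R 4.3.3 with edgeR 4.0.16's robust quasi-likelihood model over all 14 groups (16932 genes, 14 residual degrees of freedom, 26 contrasts, of which 2 were added after seeing the data). P-values were two-sided, Benjamini-Hochberg adjusted over all genes, called under 0.05; SE is the size of the log2 fold change over the square root of F. Lengths are unions of GENCODE vM1 exons. The script was tested on simulated data. Alternatives were DESeq2 1.42.0 and its size factors, limma 3.58.1 voom, no filter, a replicate block, only the groups compared and each library left out. Named are all members, up to 4 called genes per other list with the largest change at K36M against WT at d2, at d8 and at WT d2 against d0, Srf, Myocd, Mkl1, Mkl2, and the 5 genes of most like course (mean of at least 5 CPM); further values of these genes, and Klf4, Des and others at other stages, were chosen after seeing them.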

Additional observations from a re-analysis of the deposited data

Results flagged for a closer look

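The difference between K36M and WT was not the same at 2 stages for 5 members, by edgeR's test of the interaction between d8 and d2. On the log2 scale the difference moved by -3.77 ± 0.26 (SE, adjusted p = 6.67e-11) for Actg2, -1.89 ± 0.20 (SE, adjusted p = 1.24e-07) for Acta2, -1.59 ± 0.25 (SE, adjusted p = 2.80e-05) for Myl9 and -1.59 ± 0.36 (SE, adjusted p = 0.00112) for Myh11, downwards from d2 to d8, and by 1.22 ± 0.24 (SE, adjusted p = 0.000229) for Cnn1, upwards. All 5 passed in each fit that left out 1 of the 8 libraries concerned. Between noOKSM and d0 MEFs the difference moved by 1.01 ± 0.23 (SE, adjusted p = 0.00290) for Actg2 and by 0.70 ± 0.24 (SE, adjusted p = 0.0361) for Tpm2, both upwards. For both genes the libraries of the genotypes were apart at d0 and overlapped in noOKSM MEFs.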

How the results depend on the processing

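The log2 fold changes of the 9 members in all 26 comparisons were recomputed. Under settings other than leaving out a library, 1336 kept their direction and their side of the threshold, 13 lost it, 47 gained it and 8 reversed. With 1 library left out, where the lone library of a group is assumed to vary like the others, the numbers were 935, 53, 10 and 46. None of the reversed ones passed the test as reported, and the cause was not tested. They were Cald1 in WT d6 against d4 (0.0027 with DESeq2's size factors, 0.0026 with DESeq2), and, with no filter and with only the groups compared, Cnn1 in WT iPSC against d8 (-0.027 and -0.017) and, in the d8 interaction, Tagln (-0.016 and -0.039) and Cald1 (-0.028 and -0.051). Over the libraries left out, those that reversed ran as follows: K36M against WT at d2, Myh11 -0.0084 to 0.13; in iPSCs, Myh11 -0.37 to 0.42; in noOKSM MEFs, Tpm2 -0.30 to 0.049; WT d6 against WT d4, Acta2 -0.11 to 0.023, Actg2 -0.0098 to 0.14, Cnn1 -0.078 to 0.20, Tagln -0.077 to 0.18 and Cald1 -0.091 to 0.077; WT d8 against WT d6, Myh11 -0.37 to 0.016, Myl9 -0.064 to 0.18 and Tpm1 -0.16 to 0.0040; WT iPSC against WT d8, Cnn1 -0.12 to 0.018 and Myh11 -0.12 to 0.41; WT noOKSM against WT d0, Tpm1 -0.12 to 0.0089; K36M d6 against K36M d4, Acta2 -0.58 to 0.025 and Myl9 -0.13 to 0.84; K36M d8 against K36M d6, Myl9 -0.20 to 0.77 and Tpm1 -0.098 to 0.17; K36M iPSC against K36M d8, Cnn1 -0.071 to 0.15; K36M noOKSM against K36M d0, Cald1 -0.083 to 0.0016; the d2 interaction, Cnn1 -0.18 to 0.043 and Myl9 -0.13 to 0.088; the d8 interaction, Tagln -0.23 to 0.054, Tpm1 -0.020 to 0.17 and Cald1 -0.14 to 0.044; the noOKSM interaction, Tagln -0.080 to 0.31; WT d8 against WT d4, Tagln -0.25 to 0.039 and Tpm2 -0.051 to 0.25.

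Members called, K36M against WT with 1 library left out: 4 to 7 at d0, 0 to 2 in iPSCs and 3 to 6 in noOKSM MEFs (against 7, 1 and 6); 1 to 2 for the noOKSM interaction (against 2), 0 to 1 for WT d8 against d4 (against 2), 2 to 5 for K36M d8 against d6 (against 3). Fitting only the groups compared gave 4 in iPSCs, 1 for WT d6 against d4, 3 for WT d8 against d6, 1 for K36M d6 against d4 (against 6), 1 for K36M d8 against d6, 3 for the d2 interaction and 1 for WT d8 against d4. With no filter the counts were 6 in iPSCs, 1 for WT d6 against d4, 6 for K36M d8 against d6, 2 for the d2 interaction and 4 for WT d8 against d4. DESeq2 gave 2 and limma voom 2 in iPSCs.

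Over all genes, fitting only the groups compared moved the calls from 3405 to 7081 at d2, from 12013 to 7946 at d6, from 211 to 1413 in iPSCs, from 2722 to 4665 for WT d8 against d6, from 9359 to 3221 for K36M d6 against d4, from 7909 to 1122 for K36M d8 against d6 and from 1791 to 3448 for the d2 interaction. In iPSCs it was 447 with no filter and 319 with DESeq2. Leaving out 1 of the d8 libraries moved the median of all genes in the d8 interaction from -0.01 to as low as -0.13.

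Replicate numbers did not pair the libraries across the groups as a whole. Of 91 pairs of groups 22 had a correlation of same-numbered deviations over 0.1, with a median of 0.0165. The range was wide, from -0.546 for WT d0 and K36M noOKSM to 0.557 for WT d0 and WT d4. Pairing within part of the groups was not tested. With a replicate block 5 members passed in K36M d6 against d4 (against 6), and the number was as reported in every other comparison, for example 9 in K36M against WT at d4.

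Shares from raw counts without the length were, for WT d0, WT d4, K36M d4 and WT iPSC, 55.1, 14.8, 2.97 and 3.98% for the actins, 28.3, 0.820, 0.354 and 1.14% for Cnn1, 88.2, 55.4, 10.2 and 35.6% for Tagln, and 17.1, 4.91, 4.87 and 7.22% for Tpm2. Depth limits Myh11 and Myocd after d2, where few counts stand behind a group.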

Other observations

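The myosin genes can be read within their families as well. Myh11 made up 8.42% ± 0.0750 of the CPM per kb of Myh11, Myh9 and Myh10 in WT d0 (mean ± SD, n = 2), 10.3% ± 0.352 in K36M d0, 12.8% ± 0.0580 in WT noOKSM and 26.9% ± 0.676 in K36M noOKSM, so that the K36M libraries lay above the WT libraries in both kinds of MEF. A share also moves with the other genes of its family, and at d0 the difference in Myh11 itself did not pass the test. Its CPM at d0 were 302 and 280.5 in K36M and 215 and 274 in WT. At d8 the Myh11 share was 0.234% ± 0.0175 in WT and 0.0852% ± 0.00890 in K36M. Myl9 made up 70.8% ± 0.132 of the CPM per kb of Myl9, Myl12a and Myl12b in WT d0, 67.9% ± 0.0855 in K36M d0, 19.0% ± 0.0670 in WT d4, 3.91% ± 0.167 in K36M d4, 9.40% ± 1.59 in WT iPSC and 12.3% ± 0.564 in K36M iPSC. Tpm1 made up 36.6% ± 0.394 of the 4 tropomyosins in WT d0, 29.9% ± 0.0174 in K36M d0, 26.1% ± 0.314 in WT d4 and 19.6% ± 0.327 in K36M d4.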
